A study of Mus musculus with 10 samples.

Results

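Haem breakdown and iron handling were followed through 10 genes across RNA sequencing libraries of mouse peritoneal macrophages, the resident phagocytes of the abdominal cavity. The genes were taken by symbol, and all 10 were among the 54532 genes of the deposited table. The libraries fell into 3 groups by their labels: aged Trem1-/- mice (n = 3, replicates 1, 2 and 3), aged wild-type mice (n = 3, replicates 3, 4 and 6) and young wild-type mice (n = 4, replicates A, B, C and E). Trem1 encodes an activating receptor of myeloid cells. Young Trem1-/- mice were not among the labelled groups. Strain, sex, exact age, batch, purification and the making of the Trem1 allele are not labelled either, nor whether each library came from its own mouse, so p-values reflect only the spread among these libraries, which may be technical. In such bulk samples, fewer cells of a type and less RNA per cell cannot be told apart.

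Macrophages take up red cells and haem and recycle the iron. Haem is opened by haem oxygenase 1 (Hmox1) into biliverdin, carbon monoxide and iron, and biliverdin reductases (Blvra, Blvrb) turn biliverdin into bilirubin. Slc48a1 moves haem and Slc11a1 moves metal ions out of the phagolysosome, ferritin heavy and light chains (Fth1, Ftl1) store iron, ferroportin (Slc40a1) exports it, the transferrin receptor (Tfrc) imports it, and the transcription factor Spi-C (Spic) is known for the iron-recycling macrophages of the spleen. Iron regulatory proteins bind a hairpin called the iron-responsive element when iron is scarce: in the 5′ UTR it blocks translation, and in the 3′ UTR it protects the transcript from decay.

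The elements were searched in the GENCODE M21 transcripts of all 10 genes, since they separate the transcripts that iron regulates through stability from those it regulates at translation, a step that read counts do not measure. The pattern was a C, 5 bases, the loop CAGTGN and 5 bases pairing with the first 5, with G-T pairs allowed. The pattern was found in 4 genes, and each match is shown 5′ to 3′ on the transcribed strand of GRCm38, with the bulged C and the 6 loop bases in capitals. The first set lies in 5′ UTRs and the second, of 4 matches, in the 3′ UTR of Tfrc. Elements that depart from this pattern would not be found.
Fth1, 5′ UTR, chr19:9982732-9982760, plus strand: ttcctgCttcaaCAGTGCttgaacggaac
Ftl1, 5′ UTR, chr7:45459779-45459807, minus strand: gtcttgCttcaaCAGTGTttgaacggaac
Slc40a1, 5′ UTR, chr1:45925465-45925493, minus strand: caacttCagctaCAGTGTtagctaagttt
Tfrc, 3′ UTR, chr16:32631219-32631247, plus strand: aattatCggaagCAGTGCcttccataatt
Tfrc, 3′ UTR, chr16:32631598-32631626, plus strand: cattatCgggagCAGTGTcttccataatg
Tfrc, 3′ UTR, chr16:32631663-32631691, plus strand: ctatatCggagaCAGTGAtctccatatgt
Tfrc, 3′ UTR, chr16:32631710-32631738, plus strand: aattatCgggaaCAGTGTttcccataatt
The stems of Fth1 and Ftl1 share the letters on both sides of the loop, while that of Slc40a1 differs from them. Of 22527 genes with coding transcripts, 31 (0.138%) held the pattern in a 5′ UTR and 144 (0.639%) in a 3′ UTR. No match was found in the transcripts of the other 6 genes, which says only that these letters are not there.

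Promoter windows of 250 bases before to 50 after the start, from RefSeq on GRCm38, were found for 7 of the 10 genes. These were searched on both strands for 4 motifs. No window was found for Hmox1, Slc40a1 or Slc48a1, so their promoters were not searched. The antioxidant response element TGACNNNGC was present in Blvra, as GCTCGGTCA at position -49 from the start, and in 12.4% of all 32851 windows. The Maf and BACH1 element GCTGAGTCA (0.454% of all windows), the E-box CACGTG (7.15%) and the ETS site GAGGAAGT (3.20%) were in none of the 7 genes' windows.

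The libraries held 2663744 to 5603498 reads each. Values below are the authors' normalized counts, in which 3 reads correspond to 1.85 to 3.84, given per library or as mean ± SD. Fold changes are limma estimates on the log2(normalized count + 1) scale with their standard error (SE), which understates changes of genes with few counts, and p-values were adjusted by Benjamini-Hochberg over the 11506 genes tested. Trem1 was read in every library: libraries 1, 2 and 3 labelled Trem1-/- held 23.5, 106 and 13.8 normalized counts, against 64.0, 15.3 and 27.0 in the aged wild-type libraries (ratio of means 1.35, exact two-sided permutation p = 0.9). Since reads per gene cannot show a partial deletion, the genotype is taken from the label. The 10 macrophage markers summed to 62333 to 81661 in libraries labelled Trem1-/-, 23938 to 37343 in aged wild type and 72423 to 80420 in young wild type. The noncoding RNA Gm26917 took 4.999% to 5.68% of reads in libraries labelled Trem1-/-, 8.38% to 12.9% in aged wild type and 5.06% to 5.70% in young wild type. Globin transcripts took 0.618% of the reads of aged wild-type replicate 4 and at most 0.0196% in any other library.

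Aged wild-type libraries held less of most of these transcripts than the young ones, and more Tfrc. This comparison addresses the effect of age. Of the 10 genes, 8 reached a mean of 10 normalized counts and were tested, while Slc40a1 and Spic did not. Hmox1, Blvra, Blvrb, Slc11a1 and Ftl1 fell and Tfrc rose, so that 5 were lower and 1 higher of 8, while limma called 19% of all genes tested lower and 14.3% higher (33.3% in all). The median log2 fold change of the 8 genes was -0.72, against -0.02 over all genes tested. The groups did not overlap in those 6 genes, as in 40.3% of all genes tested. All 6 calls held in each of the 19 alternatives tried. In the authors' deposited table, where 21.9% of 17359 genes had an adjusted p under 0.05, the same 6 genes did too, with log2 fold changes from -1.14 for Hmox1 to 0.82 for Tfrc, and so did Spic, described with its reads further on.

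Libraries labelled Trem1-/- differed from aged wild type in 6 of these genes, with Hmox1 furthest apart. The question here is how the genotype bears on aged cells. Hmox1, Blvrb, Slc11a1, Fth1 and Ftl1 were higher and Tfrc was lower, so that 5 were higher and 1 lower of 8, while limma called 11.5% of all genes tested higher and 6.82% lower (18.4% in all). The median of the 8 genes was 0.56, against 0.02 over all genes tested. Groups did not overlap in 6 of the 8, as in 34.9% of all genes tested. Hmox1 alone kept its call in each of the 19 alternatives tried. Without any 1 library in turn the count ran from 1, without aged wild-type replicate 3, to 7, without aged wild-type replicate 4. It was 2 without library 1 labelled Trem1-/- or without aged wild-type replicate 6, and 3 without library 2 or 3 labelled Trem1-/-. EdgeR on the recovered reads called 4 and DESeq2 6, and limma fitted to these 2 groups alone called 1, which was Hmox1. Both comparisons use the same aged wild-type libraries, so opposite signs in them are not independent of each other.

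Between libraries labelled Trem1-/- and young wild type limma called none of the 8 genes, and 0.921% of all genes tested (0.591% higher and 0.33% lower). Fth1 alone passed at an unadjusted p under 0.05, edgeR called 0 and DESeq2 called 1, which was Fth1. The median of the 8 genes was 0.06, against 0.01 over all genes. The groups did not overlap in 3 of the 8, with Fth1 higher and Blvra and Slc11a1 lower, as in 15.8% of all genes tested (8.05% higher and 7.72% lower).

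These splits depend on the scale. When libraries were scaled to their total without mitochondrial transcripts and Gm26917, the median of all genes moved to 0.16 for aged against young wild type, -0.19 for Trem1-/- against aged wild type and -0.02 for Trem1-/- against young wild type. The share of called genes that were higher became 64.9% in place of 42.9% in the first comparison, 29.5% in place of 62.8% in the second and 47.9% in place of 64.2% in the third. The counts for these 8 genes on that scale were 5 lower and 1 higher in aged against young wild type, and 2 higher (Hmox1 and Ftl1) and 1 lower (Tfrc) in Trem1-/- against aged wild type.

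**Figure D1:**
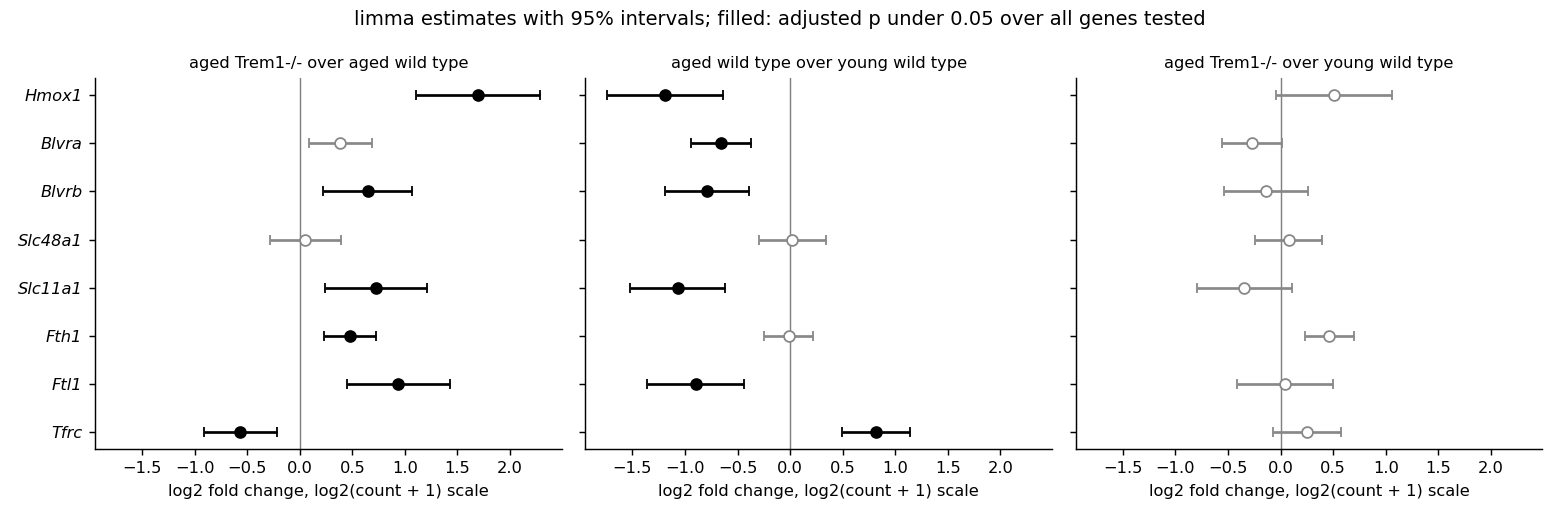
Points are limma log2 fold changes of the 8 tested genes with 95% intervals in 3 comparisons, filled where the adjusted p is under 0.05. Hmox1 stands at 1.70 for Trem1-/- over aged wild type and at -1.19 for aged over young wild type, and all points of Trem1-/- over young wild type are open.

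Transcripts of haem breakdown were lower in aged than in young wild type at both steps, and Hmox1 was highest in libraries labelled Trem1-/-. Hmox1 (ENSMUSG00000005413.8, GRCm38 chromosome 8, 75093621 to 75100589, plus strand) encodes the inducible haem oxygenase. It had 373, 594 and 364 normalized counts in libraries 1, 2 and 3 labelled Trem1-/-, against 105, 208 and 106 in replicates 3, 4 and 6 of aged wild type and 291, 271, 279 and 389 in young replicates A, B, C and E. Every aged wild-type library lay below all of the others, and replicate 4 was the highest of them. Hmox1 was 3.25-fold higher in Trem1-/- than in aged wild type (1.70 ± 0.27 SE on the log2 scale, limma adjusted p = 0.00307) and lower in aged than in young wild type (-1.19 ± 0.25, limma adjusted p = 0.00406). Library 2 labelled Trem1-/- was the highest of all, and without it the first value was 1.47. Trem1-/- and young wild type overlapped, and their difference of 0.50 had a 95% interval of -0.05 to 1.06 (limma adjusted p = 0.403).

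Hmox2, the constitutive haem oxygenase, passed in none of the 3 comparisons. It averaged 203 ± 22.8 normalized counts in Trem1-/-, 206 ± 25.2 in aged wild type and 205 ± 17.5 in young wild type (SD), with limma adjusted p of 0.942 to 0.999. The ratio of Hmox1 to Hmox2 reads within a library, a measure chosen after the values were seen, needs no scaling between libraries. It was 1.86, 3.27 and 1.60 in libraries labelled Trem1-/-, against 0.469, 0.965 and 0.599 in aged wild type and 1.53, 1.35, 1.21 and 1.97 in young wild type. Hmox1 thus outnumbered Hmox2 in every Trem1-/- and young library and in none of the aged wild-type ones. The exact two-sided permutation p was 0.1 for Trem1-/- against aged wild type and 0.0571 for aged against young wild type, in each case the smallest that the design allows (0.206 and 0.171 after Benjamini-Hochberg adjustment over 9 comparisons of ratios).

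The biliverdin reductases moved by less than Hmox1. Blvra (ENSMUSG00000001999.15, chromosome 2, 127070665 to 127097084, plus strand), which reduces biliverdin IX alpha, had 92.0, 100 and 96.4 normalized counts in Trem1-/-, against 70.4, 85.1 and 65.6 in aged wild type and 105, 115, 120 and 127 in young wild type. The 3 groups did not overlap, with Trem1-/- between the others. Blvra was lower in aged than in young wild type (-0.66 ± 0.13 on the log2 scale, limma adjusted p = 0.00271). Its difference of 0.39 between Trem1-/- and aged wild type (95% interval 0.08 to 0.69) did not pass (limma adjusted p = 0.0732), and passed without aged wild-type replicate 4 (limma adjusted p = 0.0288).

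Blvrb (ENSMUSG00000040466.16, chromosome 7, 27447978 to 27466144, plus strand), the flavin and biliverdin IX beta reductase, had 255, 242 and 237 normalized counts in Trem1-/-, against 116, 225 and 146 in aged wild type and 242, 262, 280 and 300 in young wild type. Aged wild-type replicate 4 lay close below the others and replicates 3 and 6 far below. Blvrb was lower in aged than in young wild type (-0.79 ± 0.18, limma adjusted p = 0.00676) and higher in Trem1-/- than in aged wild type (0.64 ± 0.20, limma adjusted p = 0.0409). The second call was lost without library 1, 2 or 3 labelled Trem1-/-, aged wild-type replicate 3 or 6, or young replicate A, B or C (adjusted p 0.0559 to 0.135), and with edgeR (0.0698). The ratio of Blvra to Blvrb reads averaged 0.393 ± 0.029 in Trem1-/-, 0.478 ± 0.115 in aged wild type and 0.431 ± 0.00647 in young wild type (SD), with exact permutation p of 0.3 for Trem1-/- against aged wild type, 0.629 for aged against young wild type and 0.0571, the smallest possible, for Trem1-/- against young wild type.

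**Figure D2:**
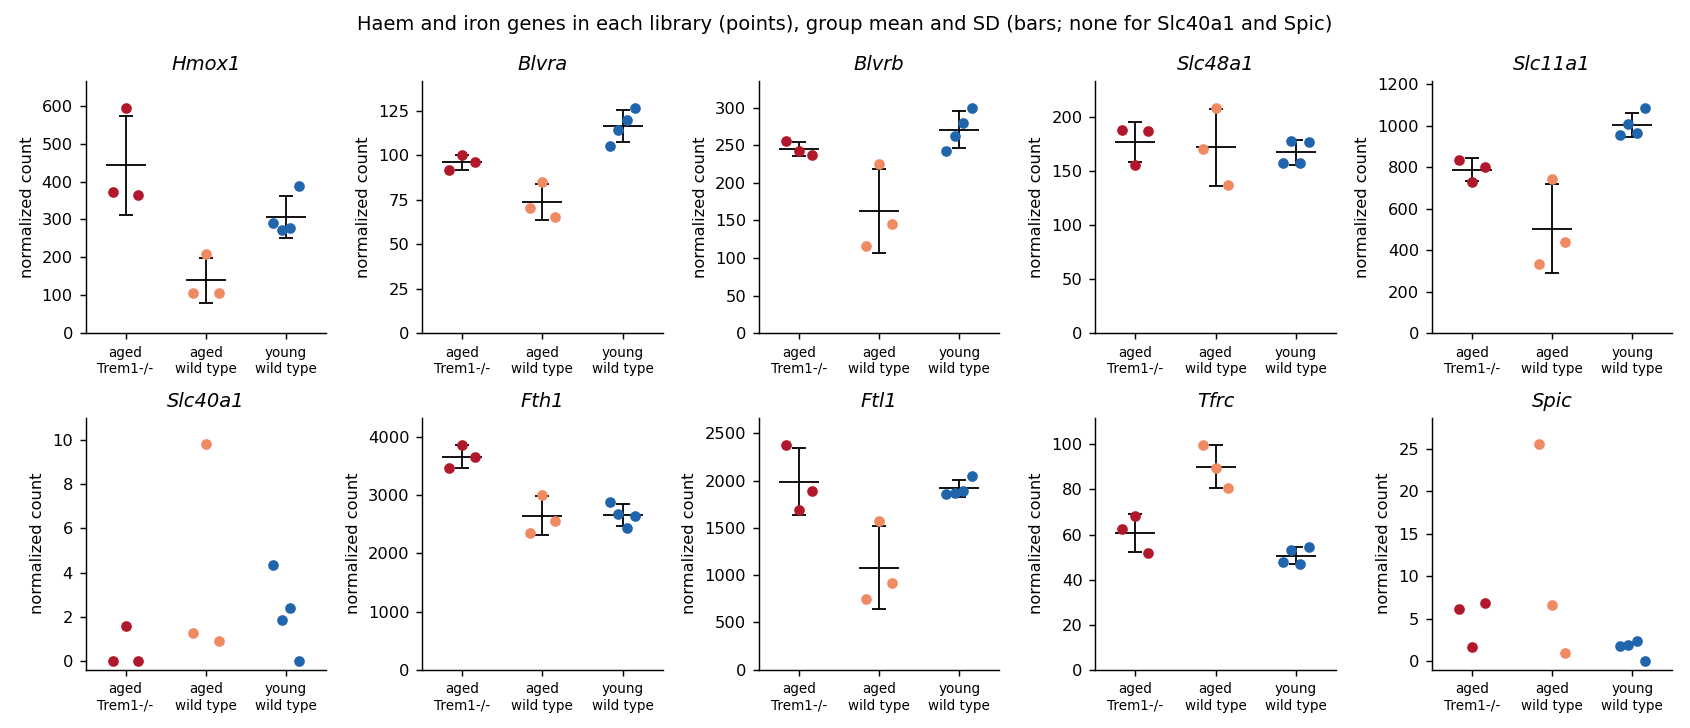
Each point is the normalized count of a gene in 1 library, with the group mean and SD as bars (no SD for Slc40a1 and Spic), for aged Trem1-/- (as labelled), aged wild type and young wild type. Hmox1 lies between 105 and 208 in aged wild type, below all other libraries, Tfrc lies above all others there, and Slc40a1 and Spic are near 0.

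Of the transporters of the phagolysosome, Slc11a1 changed and Slc48a1 did not pass any test. Slc11a1 (ENSMUSG00000026177.11, chromosome 1, 74375195 to 74386062, plus strand) encodes NRAMP1, which takes iron and manganese out of the phagosome. It had 836, 728 and 802 normalized counts in Trem1-/-, against 331, 742 and 439 in aged wild type and 954, 1007, 966 and 1086 in young wild type. The young libraries were all above the rest, and aged wild-type replicate 4 lay within the range of Trem1-/-. Slc11a1 was lower in aged than in young wild type (-1.07 ± 0.21, limma adjusted p = 0.00247) and higher in Trem1-/- than in aged wild type (0.72 ± 0.22, limma adjusted p = 0.0421). The second call, whose groups overlap, was lost without any 1 of the 10 libraries other than aged wild-type replicate 4 (adjusted p 0.0516 to 0.132), and with edgeR (0.0807).

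Slc48a1 (ENSMUSG00000081534.3, chromosome 15, 97778520 to 97792692, plus strand) encodes HRG1, the haem transporter of the phagolysosome membrane. It had 188, 155 and 187 normalized counts in Trem1-/-, against 170, 208 and 137 in aged wild type and 158, 178, 157 and 177 in young wild type. All 3 groups overlapped. The log2 difference was 0.05 (95% interval -0.28 to 0.39) for Trem1-/- against aged wild type and 0.02 (-0.30 to 0.34) for aged against young wild type, with limma adjusted p of 0.835 and 0.927. Its exons share 29 bases with Hdac7 on the opposite strand.

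Storage was divided between a heavy chain that was highest in libraries labelled Trem1-/- and a light chain that was lowest in aged wild type. Fth1 (ENSMUSG00000024661.7, chromosome 19, 9980598 to 9985098, plus strand), whose product oxidises iron for storage, had 3463, 3870 and 3666 normalized counts in Trem1-/-, against 2356, 3013 and 2564 in aged wild type and 2884, 2682, 2440 and 2639 in young wild type. Aged and young wild type overlapped, and all Trem1-/- libraries lay above both. Fth1 was 1.39-fold higher in Trem1-/- than in aged wild type (0.48 ± 0.11 on the log2 scale, limma adjusted p = 0.0167), a call lost without library 2 labelled Trem1-/- or aged wild-type replicate 3 or 6 (adjusted p 0.0542 to 0.0594). Against young wild type the difference was 0.46 ± 0.11, with a limma adjusted p of 0.0649 and, with DESeq2, of 0.0027; limma also called it without aged wild-type replicate 3 or 4 (limma adjusted p = 0.0443 and 0.0257). Between aged and young wild type the difference was -0.01, with a 95% interval of -0.25 to 0.22.

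Ftl1 (ENSMUSG00000050708.16, chromosome 7, 45457944 to 45459884, minus strand), whose product helps to form the iron core, had 2381, 1694 and 1893 normalized counts in Trem1-/-, against 745, 1577 and 921 in aged wild type and 1864, 1865, 1890 and 2051 in young wild type. All aged wild-type libraries were below the rest, replicate 4 least so. Ftl1 was lower in aged than in young wild type (-0.90 ± 0.21, limma adjusted p = 0.00688) and higher in Trem1-/- than in aged wild type (0.94 ± 0.22, limma adjusted p = 0.0160). The second call was lost without library 1 labelled Trem1-/- or aged wild-type replicate 3 or 6 (adjusted p 0.0540 to 0.0602). Of its exon bases 34.6% overlap Gm22133 and Gm10252, and 50.9% of its 50-base words recur in 15 other genes. Those genes together with Gm10252 held 527 reads, 2.99% of the 17653 reads of Ftl1, and reads that match several places may have been dropped in all of them.

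The proportion of the chains differed with it. The ratio of Fth1 to Ftl1 reads, also chosen after the values were seen, was 1.45, 2.28 and 1.94 in libraries labelled Trem1-/-, against 3.16, 1.91 and 2.78 in aged wild type and 1.55, 1.44, 1.29 and 1.29 in young wild type. Every aged wild-type library lay above every young one, and Trem1-/- overlapped both. The exact two-sided permutation p was 0.0571 for aged against young wild type, the smallest possible (0.171 adjusted over the 9 comparisons), 0.3 for Trem1-/- against aged wild type and 0.114 for Trem1-/- against young wild type.

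**Figure D3:**
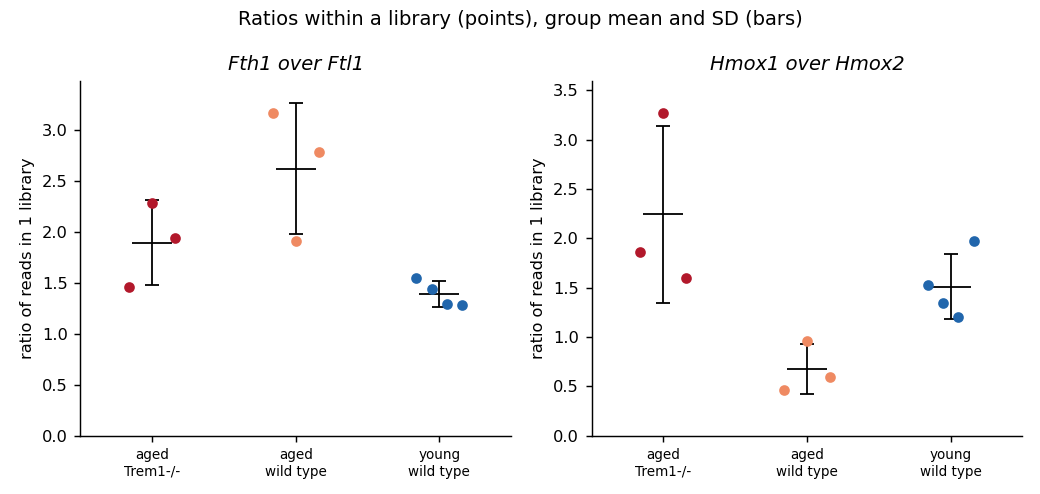
Points are ratios of reads within 1 library, with group mean and SD as bars. Fth1 over Ftl1 averages 1.89 in Trem1-/-, 2.62 in aged and 1.39 in young wild type, and Hmox1 over Hmox2 is under 1 in all aged wild-type libraries only.

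The export gene was close to absent. Slc40a1 (ENSMUSG00000025993.10, chromosome 1, 45908068 to 45926523, minus strand), which encodes ferroportin, had 0, 2 and 0 reads in libraries labelled Trem1-/-, against 1, 9 and 1 in replicates 3, 4 and 6 of aged wild type and 5, 3, 2 and 0 in young replicates A, B, C and E. Replicate 4 held 9 of the 11 reads of aged wild type. It was also the library in which globins took 0.618% of reads and the erythroid markers summed to 23876 normalized counts, against 545 and 481 in replicates 3 and 6. The part of such cells in those reads was not tested. With no filter on low values limma did not call it (adjusted p = 0.402 for Trem1-/- against aged wild type and 0.752 for aged against young wild type).

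The uptake gene ran opposite to the 5 genes called lower with age. Tfrc (ENSMUSG00000022797.16, chromosome 16, 32608920 to 32632794, plus strand), the transferrin receptor, had 62.3, 68.1 and 51.6 normalized counts in Trem1-/-, against 99.8, 89.5 and 80.9 in aged wild type and 47.9, 53.0, 46.8 and 54.6 in young wild type. All aged wild-type libraries were above the others, and replicate 4, the highest for the other 7 tested genes, was not the highest here. Tfrc was higher in aged than in young wild type (0.82 ± 0.15 on the log2 scale, limma adjusted p = 0.00184) and lower in Trem1-/- than in aged wild type (-0.57 ± 0.16, limma adjusted p = 0.0309). The second call was lost without library 1 or 3 labelled Trem1-/- or aged wild-type replicate 3 (adjusted p 0.0650 to 0.106), and with no filter on low values (0.106). Of the genes with the iron-responsive elements shown above, Tfrc, with 4 matches to the pattern in the 3′ UTR, was the one that rose with age. Of the ferritins, with 1 match each in the 5′ UTR, Ftl1 fell and Fth1 did not pass. The part of iron or of these elements in the levels was not tested.

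Dividing cells are known for Tfrc, and their markers are set beside it here, with those of lymphocytes, erythroid cells and mesothelial cells. The 6 markers of dividing cells summed to 599 to 894 normalized counts in Trem1-/-, 308 to 731 in aged wild type and 1340 to 3689 in young wild type. All 6 were lower in aged than in young wild type, as were 19% of all genes tested. B cell markers summed to 5772 to 12362 in Trem1-/-, 12500 to 20197 in aged wild type and 2322 to 5028 in young wild type, and T and NK cell markers to 41.9 to 80.1 in Trem1-/-, 205 to 348 in aged wild type and 30.2 to 65.4 in young wild type. All 8 B cell markers and all 6 tested T and NK cell markers were higher in aged than in young wild type, against 14.3% of all genes tested. In Trem1-/- against aged wild type 2 of the 8 B cell markers and 5 of the 6 T and NK cell markers were lower, against 6.82% of all genes tested. Mesothelial markers summed to 14.3 to 146 in Trem1-/-, 199 to 378 in aged wild type and 3.49 to 107 in young wild type. Erythroid markers summed to 19.5 to 60.1 in Trem1-/-, 481 to 23876 in aged wild type and 12.8 to 765 in young wild type. Aged and young wild type overlapped in that sum. The part of dividing cells, lymphocytes, erythroid cells and mesothelial cells in the Tfrc counts was not tested.

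Spic (ENSMUSG00000004359.16, chromosome 10, 88674772 to 88685015, minus strand) was barely read. It had 6, 2 and 6 reads in libraries labelled Trem1-/-, against 20, 6 and 1 in aged wild type and 2, 3, 2 and 0 in young wild type, and replicate 3 held 20 of the 27 reads of aged wild type. The authors' deposited table gave it a log2 fold change of 2.83 for aged over young wild type with an adjusted p of 0.0488. With no filter on low values limma did not call it (adjusted p = 0.200 for that comparison and 0.786 for Trem1-/- against aged wild type). Of 5 markers of the red pulp macrophages of the spleen, Vcam1 and Treml4 were under the filter, with group means of at most 6.80 normalized counts, while Cd5l, Siglec1 and Cd163 were read in all groups. Cd5l, an apoptosis inhibitor secreted by macrophages, averaged 3792 ± 1017 normalized counts in Trem1-/-, 1649 ± 665 in aged wild type and 3947 ± 703 in young wild type (SD). It was higher in Trem1-/- than in aged wild type (1.24 on the log2 scale, limma adjusted p = 0.0102) and lower in aged than in young wild type (-1.31, limma adjusted p = 0.00221).

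Per kilobase of exon, with the exon bases of all transcripts of a gene merged, ferritin outweighed the rest by far. Ftl1 averaged 1484 normalized counts per kilobase in Trem1-/-, 807 in aged wild type and 1431 in young wild type, and Fth1 averaged 1057 in Trem1-/-, 762 in aged wild type and 767 in young wild type. The ranges of the chains overlapped in aged wild type and did not in the other groups. The order of the chains depends on the length used, here 3469 bases for Fth1 and 1340 for Ftl1. The transcripts with the matches shown above have 929 bases for Fth1 and 968 for Ftl1. Without division by length Fth1 was above Ftl1 in every library. Levels per kilobase on other lengths were not measured. Hmox1 followed at 253 per kilobase in Trem1-/-, where it overlapped Slc11a1 at 213. It stood at 79.8 in aged wild type, in a run of overlapping neighbours from Slc11a1 (136) through Hmox1 to Slc48a1 (62.5) and Blvrb (58.3). In young wild type Slc11a1 (271), Hmox1 (176), Blvrb (97.4) and Slc48a1 (60.9) stood apart from each other. Blvra came next in each group, at 39.3 per kilobase in Trem1-/-, 30.1 in aged wild type and 47.7 in young wild type, and then Tfrc, at 9.81 in Trem1-/-, 14.6 in aged wild type and 8.18 in young wild type. Spic and Slc40a1 came last, with group means of at most 2.87 and 0.444 per kilobase.

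The falls with age stood beside a fall of the macrophage markers themselves. Of 10 such markers, 8 were lower in aged than in young wild type (median log2 fold change -1.16), while limma called 19% of all genes tested lower. In Trem1-/- against aged wild type 8 were higher (median 1.01), against 11.5% of all genes tested. None of the 10 markers was at 0 in any group. To set the genes beside them, the mean log2 level of the 10 markers was taken from each gene's log2 level in the same library, a measure chosen after the values were seen. On that relative scale Hmox1 differed by -0.10 between aged and young wild type, Slc11a1 by 0.02 and Ftl1 by 0.19, and the groups overlapped for all 3. Blvra, Blvrb, Slc48a1, Fth1 and Tfrc were higher in aged than in young wild type by 0.43, 0.31, 1.11, 1.08 and 1.91, with no overlap. The subtraction shifts all genes of a library by the same amount, and Slc48a1 stood at 0.02 before it. How many of all genes tested lack overlap on this relative scale was not measured.

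Relative to the markers, Hmox1 was the one gene of the 8 that was higher in Trem1-/- than in aged wild type with no overlap. Its relative level averaged -1.81 ± 0.25 in Trem1-/-, -2.55 ± 0.32 in aged wild type and -2.45 ± 0.20 in young wild type (SD), and the Trem1-/- libraries did not overlap either of the others. Against aged wild type the difference was 0.74 for Hmox1. Blvra, Blvrb, Slc48a1, Fth1 and Tfrc differed by -0.58, -0.32, -0.91, -0.48 and -1.53 with no overlap, and Slc11a1 (-0.24) and Ftl1 (-0.02) overlapped. Before the marker level was taken off, Slc48a1 stood at 0.05 in this comparison. The share of all genes tested without overlap on this scale was not measured here either. Against young wild type Hmox1, Fth1 and Tfrc were higher by 0.64, 0.59 and 0.38 with no overlap. Exact two-sided permutation p-values were 0.1 or 0.0571, the smallest that the designs allow, for each of those without overlap, and at least 0.171 after adjustment over the 24 comparisons. Whether the marker level sets the level of these genes was not tested.

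**Figure D4:**
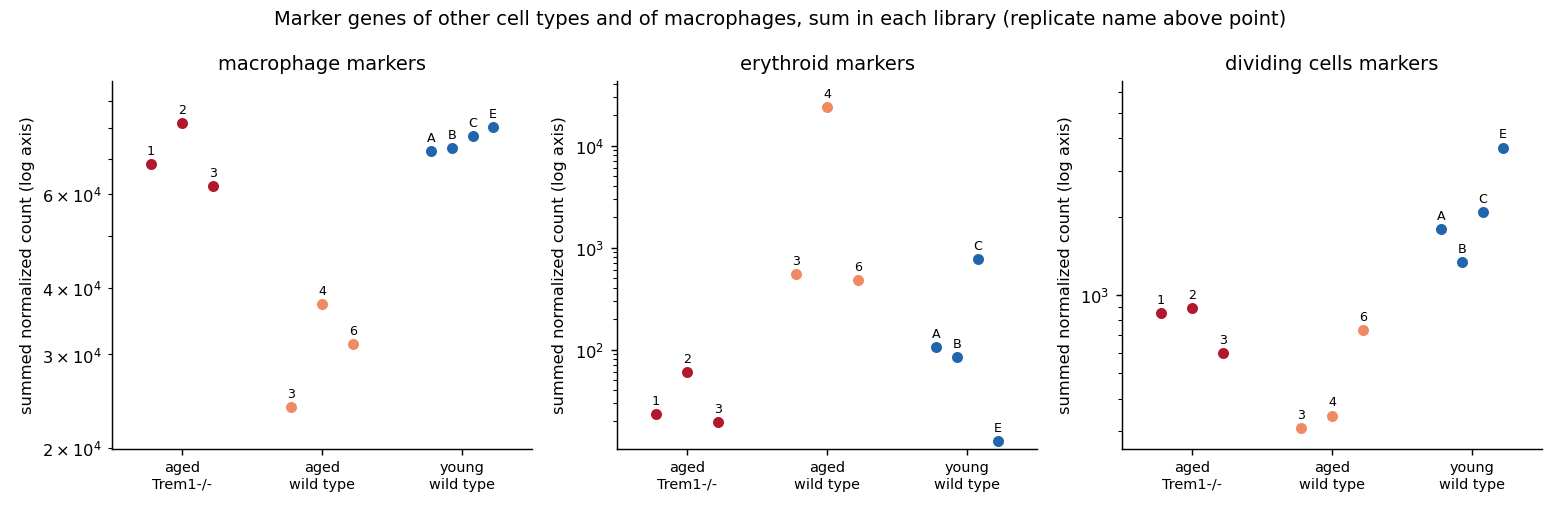
Points are the summed normalized counts of marker genes in each library on a log axis, with the replicate name above each. Macrophage markers are lowest in the 3 aged wild-type libraries (23938 to 37343), erythroid markers peak at 23876 in aged wild-type replicate 4, and markers of dividing cells are highest in young wild type.

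Across the 10 libraries Blvrb, Slc11a1 and Ftl1 moved most closely together, as a description of points that share groups and library composition. Pearson's r of log2 levels was 0.98 for Blvrb with Slc11a1, 0.96 for Blvrb with Ftl1 and 0.94 for Slc11a1 with Ftl1. Hmox1 had its highest r with Ftl1 (0.86) and Blvrb (0.84). Fth1 went less with the others, with r of 0.71 with Hmox1, 0.50 with Ftl1, 0.36 with Blvrb, 0.26 with Slc11a1, 0.10 with Blvra and -0.14 with Tfrc. Tfrc was negative with 6 of the other 7 genes, down to -0.83. Of the genes outside the group, Slc27a4, P4ha1 and Usp47 were most like Hmox1 (r = 0.98), Padi4, Cgnl1 and Anxa3 most like Slc11a1 (0.99) and Slc9a3r2, Emilin1 and Cd36, the last a fatty acid and lipoprotein scavenger receptor, most like Ftl1 (0.98 to 0.99). S100a1, Sdc3 and Fam20a were most like Blvrb (0.98), Arpc5, Sem1 and Mcub most like Blvra (0.98), and Dgat1, Crybg1 and Tspan18 most like Tfrc (0.95 to 0.97). Fth1 had Tjp1 at 0.98 and then Tmem248 and Resf1 at 0.93, and Slc48a1 had B4galt6, Rad52 and Abhd10 at 0.88 to 0.89.

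Lists of other haem and iron genes were set beside these values, while limma called 18.4% of all genes tested in Trem1-/- against aged wild type and 33.3% in aged against young wild type. Of 16 genes that sense iron, haem or oxidants or drive macrophage transcription, 4 were higher and 1 lower in Trem1-/- than in aged wild type (median 0.59) and 1 was higher and 5 lower in aged than in young wild type (median -0.26), so that 6 of 16 with age is close to the 33.3% of all genes. Bach1, the haem-sensing repressor of Hmox1, averaged 969 ± 299 normalized counts in Trem1-/-, 339 ± 34.3 in aged wild type and 811 ± 39.8 in young wild type (SD). It was thus higher in Trem1-/- than in aged wild type (1.47 ± 0.18 on the log2 scale, limma adjusted p = 0.00166) and lower in aged than in young wild type (-1.26 ± 0.17, limma adjusted p = 0.000407), the same directions as Hmox1. Maf, a transcription factor of macrophages, differed by 1.19 and -1.24 in these comparisons and Spi1, the gene of PU.1, by 0.65 and -0.66, and all 4 values passed. Mafg, a small Maf partner of BACH1 and NRF2, was lower in aged than in young wild type (-0.78, limma adjusted p = 0.0214), a call lost when aged wild-type replicate 3 or 6 or young replicate C was left out (adjusted p 0.0554 to 0.0969) and on the total without mitochondrial transcripts and Gm26917 (0.0529).

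Nfe2l2, the gene of the transcription factor NRF2, was higher in Trem1-/- than in aged wild type (0.80 ± 0.22, limma adjusted p = 0.0264). It did not pass between aged and young wild type (-0.46, limma adjusted p = 0.101). The first call was lost without library 2 labelled Trem1-/- or aged wild-type replicate 3 or 6 (limma adjusted p 0.0646 to 0.0785), on the total without mitochondrial transcripts and Gm26917 (0.0551) and with the 2 groups alone (0.0659). The gene lower in Trem1-/- and higher in aged wild type was Spib, an ETS factor of B cells (-1.24 and 2.17). B cell markers had the sums given above, and the part of B cells in Spib was not tested. Its first call was lost without library 1 or 2 labelled Trem1-/- or aged wild-type replicate 3 or 6 (adjusted p 0.0539 to 0.0988) and with the 2 groups alone (0.0515). Of the iron regulatory proteins, Aco1 was lower in aged than in young wild type (-0.77, limma adjusted p = 0.00471) and stood at 0.55 in Trem1-/- against aged wild type (limma adjusted p = 0.0503). Ireb2 passed in neither comparison (-0.10 in Trem1-/- against aged wild type and 0.25 in aged against young wild type).

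Among 13 tested partners of iron transport and storage, of 22 listed, 3 were higher in Trem1-/- than in aged wild type (median 0.19) and 4 were lower in aged than in young wild type (median -0.11), both near the 18.4% and 33.3% of all genes. Trf, the iron carrier transferrin, averaged 189 ± 36.3 normalized counts in Trem1-/-, 91.3 ± 29.5 in aged wild type and 162 ± 38.7 in young wild type (SD), with log2 fold changes of 1.07 (limma adjusted p = 0.0152) and -0.83 (0.0185). Hfe, which tunes iron sensing at the cell surface, differed by 0.78 and -0.74, and Steap3, an endosomal ferrireductase, by 0.75 and -1.04, all past the threshold. The fourth that was lower with age was Mcoln1, a lysosomal cation channel (-0.40, limma adjusted p = 0.0254), a call that ended without any 1 of the aged wild-type replicates or without young replicate B or C (adjusted p 0.0502 to 0.0698). Scaled to the total without mitochondrial transcripts and Gm26917 Mcoln1 was -0.22 (limma adjusted p = 0.204), and it did not pass with no filter (0.114) or DESeq2 (0.0665). In Trem1-/- against aged wild type each of the 3 calls was lost without some libraries: Trf without library 1 labelled Trem1-/- or aged wild-type replicate 3 (adjusted p = 0.0577 and 0.0567), Hfe without library 1 or 3 labelled Trem1-/- or aged wild-type replicate 3 or 6 (0.05002 to 0.0730), and Steap3 without library 1 or 2 labelled Trem1-/-, aged wild-type replicate 3 or 6 or young replicate A, B or C (0.0532 to 0.160). Scaled to the total without mitochondrial transcripts and Gm26917, Hfe (0.0542) and Steap3 (0.0978) did not pass either, nor did Hfe with the 2 groups alone (0.0715) or Steap3 with 5 further settings (0.0510 to 0.0960). Trf lost its call with age without aged wild-type replicate 3 or 6 (0.0849 and 0.0586) and on that total (0.0521). Pcbp1, an iron chaperone for ferritin, did not pass in Trem1-/- against aged wild type (0.28, limma adjusted p = 0.164).

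Haem uptake and export gave 1 call in Trem1-/- against aged wild type, among 8 tested of 12 genes, and 2 with age, below the 18.4% and 33.3% of all genes. Lrp1, the receptor that takes up haem bound to hemopexin among many ligands, averaged 10627 ± 146 normalized counts in Trem1-/-, 5583 ± 1505 in aged wild type and 14150 ± 549 in young wild type (SD), with log2 fold changes of 0.96 (limma adjusted p = 0.00393) and -1.37 (0.000214). Cd163, the receptor of haptoglobin bound to haemoglobin, was lower in aged than in young wild type (-1.20, limma adjusted p = 0.0174), which did not pass without aged wild-type replicate 3 or 6 (limma adjusted p = 0.0738 and 0.0838), and it did not pass in Trem1-/- against aged wild type (0.42, limma adjusted p = 0.435). Hp, haptoglobin, and Pgrmc2, a haem chaperone, did not pass in that comparison (0.66 and 0.36). The median of the list was 0.27 in Trem1-/- against aged wild type and -0.31 in aged against young wild type.

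Haem synthesis had 1 gene higher and 1 lower of 9 in each comparison, with medians of -0.22 in Trem1-/- against aged wild type and 0.05 in aged against young wild type. Alas1, the first enzyme of the pathway in most tissues, was higher in Trem1-/- than in aged wild type (0.46, limma adjusted p = 0.0285) and lower in aged than in young wild type (-0.48, limma adjusted p = 0.00941, but 0.0743 when scaled to the total without mitochondrial transcripts and Gm26917). The first call was lost without any 1 of the 3 libraries labelled Trem1-/- or without aged wild-type replicate 3 or 6 (limma adjusted p 0.0503 to 0.0950). On that total its value was 0.25 (limma adjusted p = 0.177), and it was also lost with no filter (0.108), with the 2 groups fitted alone (0.0802) and with DESeq2 (0.0597). Alas2, its erythroid counterpart, ran the other way (-5.49 and 4.09) beside the globins. Without aged wild-type replicate 4 its value was -3.60 in Trem1-/- against aged wild type, which still passed, and 2.20 with age, which did not (limma adjusted p = 0.117). The call with age was also lost without young replicate A, B or E (adjusted p 0.0665 to 0.0975) and with the 2 groups alone (0.0561). The one in Trem1-/- against aged wild type was lost without library 1 or 3 labelled Trem1-/- (adjusted p = 0.0730 and 0.0546). DESeq2 called 0 of the 9 genes in Trem1-/- against aged wild type, but it gave no adjusted p for Alas2. Cpox and Alad, enzymes further along, did not pass in Trem1-/- against aged wild type (0.62 and -0.59).

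Partners of Hmox1 among NRF2 targets followed its direction in part. Of 8 listed 6 were tested, while Nqo1 and Slc7a11 were under the filter. In Trem1-/- against aged wild type 3 were higher and 0 lower (median 0.47), while limma called 11.5% of all genes tested higher and 6.82% lower. EdgeR called 1 of the 6 there and DESeq2 2. In aged against young wild type 1 was higher and 3 lower (median -0.53), against 14.3% and 19% of all genes tested. The macrophage markers had medians of 1.01 and -1.16 in these comparisons. G6pdx, which supplies NADPH, averaged 498 ± 53.4 normalized counts in Trem1-/-, 317 ± 62.5 in aged wild type and 559 ± 59.8 in young wild type (SD), with log2 fold changes of 0.66 (limma adjusted p = 0.0140) and -0.83 (0.00134). Prdx1, a peroxiredoxin, differed by 0.45 and -0.56, and Srxn1, which repairs peroxiredoxins, by 1.04 and -1.04, all past the threshold. Gclc, for glutathione synthesis, was higher in aged than in young wild type (0.92), opposite to Hmox1. Txnrd1, thioredoxin reductase, did not pass (0.48 in Trem1-/- against aged wild type). The calls in Trem1-/- against aged wild type were lost without some libraries: G6pdx without library 1 labelled Trem1-/- (adjusted p = 0.0525), Prdx1 without library 1 or 3 labelled Trem1-/-, aged wild-type replicate 3 or 6 or young replicate B (0.0528 to 0.122), and Srxn1 without any 1 library other than aged wild-type replicate 4 (0.0619 to 0.141). Scaled to the total without mitochondrial transcripts and Gm26917, Prdx1 was 0.24 (limma adjusted p = 0.213) and Srxn1 0.84 (0.0849). Prdx1 was also lost with edgeR (0.0563), the 2 groups alone (0.0738) and no filter (0.0725), and Srxn1 with 6 further settings (0.0502 to 0.118). Srxn1 lost its call with age without aged wild-type replicate 3 or 6 or young replicate B, C or E (0.0510 to 0.0835).

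Iron-sulphur cluster assembly, a user of the same iron, had no gene called by limma among 10 tested in Trem1-/- against aged wild type (median -0.15; 1 at an unadjusted p under 0.05, 0 with edgeR and 0 with DESeq2) and 1 in aged against young wild type (median -0.12). It was Iscu, the scaffold protein (-0.45, limma adjusted p = 0.0144), which did not pass without aged wild-type replicate 3 (adjusted p = 0.0609) or with no filter (0.0503). Scaled to the total without mitochondrial transcripts and Gm26917 it was -0.27 (limma adjusted p = 0.0852). In Trem1-/- against young wild type limma, edgeR and DESeq2 each called 0 of the 62 tested genes of these 6 lists, and 9 had an unadjusted limma p under 0.05. Of the 15 genes named from these lists and the marker lists with a call in Trem1-/- against aged wild type, 5 (Bach1, Cd5l, Lrp1, Maf and Spi1) kept it in all 19 alternatives, as did 12 of 20 in aged against young wild type.

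**Figure D5:**
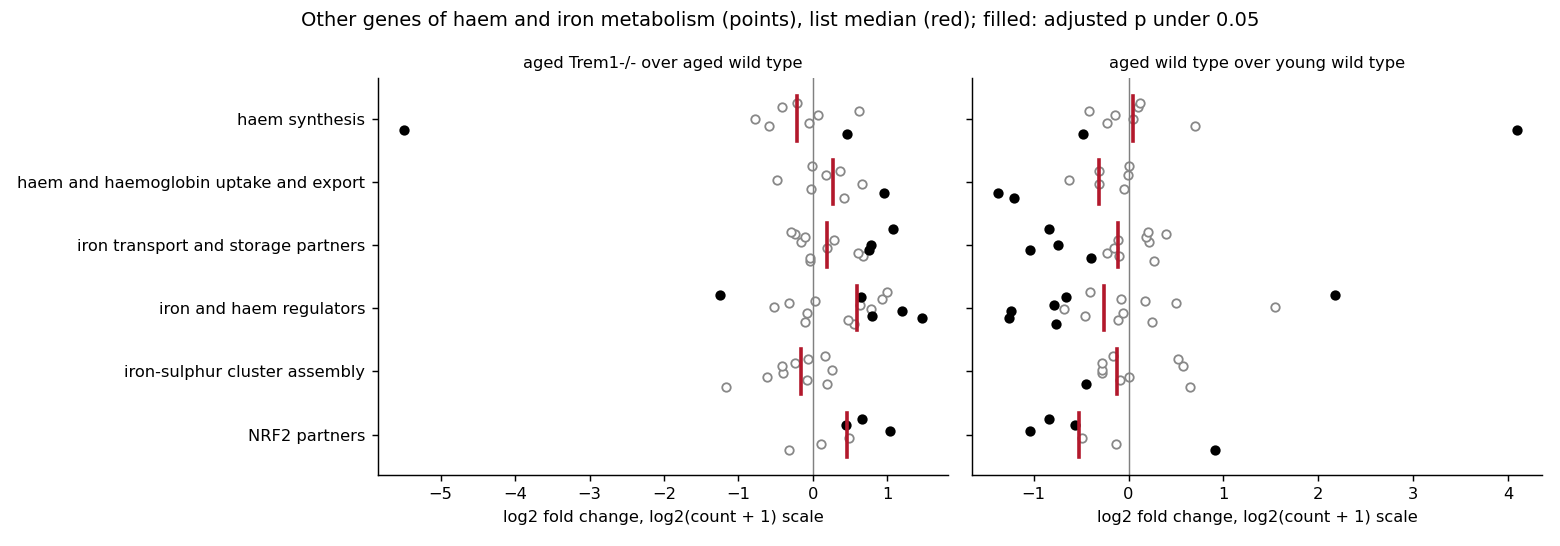
Points are log2 fold changes of the tested genes of 6 lists, filled where the adjusted p is under 0.05, and red bars are list medians. The regulators have the highest median for Trem1-/- over aged wild type (0.59) and the NRF2 partners the lowest for aged over young wild type (-0.53), and Alas2 lies far out at -5.49 and 4.09.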

How the data were processed

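Values are the authors' deposited normalized counts, a signal per gene and library; the submitters' processing notes list fastp, STAR, featureCounts 1.5.0-p3, DESeq2 1.20.0 and GRCm38, with parameters, annotation release and strand setting not given in the sources used here. In every library column 100% of values were whole multiples of the value of 1 read within 1e-06, so reads were recovered. The authors also deposited, for aged against young wild type, a log2 fold change, a score (the Wald statistic) and p-values. Symbols were matched to GENCODE M21 on GRCm38.

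Limma-trend (limma 3.58.1, R 4.3.3) was fitted to log2(normalized count + 1) of the genes with a mean of at least 10 (11506 of 54532; 17593 held no read), with all 10 libraries in 1 model of 3 groups. Thresholds are 0.05 after Benjamini-Hochberg adjustment over all genes tested. Limma was chosen because the values are normalized; edgeR 4.0.16 and DESeq2 1.42.0 on the recovered reads were alternatives. The script was tested on simulated data. The 10 genes, the lists and the tests were chosen with earlier results of these data known. Of each list, the genes with the 4 smallest adjusted p-values in Trem1-/- against aged wild type were to be named; Spib, Aco1, Ireb2, Mafg, Mcoln1, Hmox2, Gclc and Cd5l were added after their values were seen. Alternatives were pseudocounts of 0.5 and 5, no filter and a mean of at least 50, TMM, the total without mitochondrial transcripts and Gm26917, 2 groups at a time, edgeR, DESeq2 and each library left out, 19 in all. Floors of 3 reads cover counting error only, since no molecular identifiers are stated.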

Additional observations from a re-analysis of the deposited data

Results flagged for a closer look

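In young wild type the highest library, replicate E, stood apart from the other 3 by Dixon's criterion for 4 samples in 2 genes. Hmox1 had 389 normalized counts there, against 271 to 291 in the others, and Ftl1 had 2051, against 1864 to 1890. Chance gives such a gap in about 1 of 20 groups. Replicate E was the highest young library in 6 of the 8 tested genes. Groups of 3 were not examined in this way.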

How the results depend on the processing

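In aged against young wild type the 6 calls held in all 19 alternatives. Values that changed sign were small: Fth1 was 0.00484 with TMM, 0.169 with the total without mitochondrial transcripts and Gm26917, 0.0177 with edgeR, 0.0236 with DESeq2, and -0.112 to 0.0652 with 1 library left out, above 0 without aged wild-type replicate 3 or 6 or young replicate A. Slc48a1 was -0.127 to 0.172 with 1 library left out, below 0 without aged wild-type replicate 4 or young replicate A or C. In Trem1-/- against aged wild type Slc48a1 was -0.155 with that total and -0.0964, without aged wild-type replicate 6, to 0.202 with 1 left out. In Trem1-/- against young wild type Ftl1 was -0.0979, without library 1 labelled Trem1-/-, to 0.148 with 1 left out. Of the 10 genes, the number called in Trem1-/- against aged wild type was 6, with 3 on that total, 1 when only the 2 groups compared were fitted and 1 to 7 with 1 library left out; of all genes 2112 were called, 1171 with those 2 groups alone and 1077 to 2800 with 1 library left out. In Trem1-/- against young wild type 0 of the genes were called, 1 with the 2 groups alone, 1 with DESeq2 and 0 to 1 with 1 library left out; of all genes 106, with 263 without a filter, 36 with a mean of at least 50, 299 with the 2 groups alone, 448 with DESeq2 and 0 to 268 with 1 library left out. In aged against young wild type 3837 of all genes were called, and 2753 to 4161 with 1 library left out. The log2 ratio of Trem1 in Trem1-/- against aged wild type was 0.43, from -0.93 without library 2 labelled Trem1-/- to 1.17 with 1 library left out, and 0.51 to 1.62 in aged against young wild type. Over the 8 tested genes and 19 alternatives, 112 of 152 values kept direction and side of the threshold in Trem1-/- against aged wild type (37 lost the call, 1 gained it), 142 in aged against young wild type and 147 in Trem1-/- against young wild type. The cause of these changes was not tested. Where 1 library was left out of 3, the spread was estimated over all groups. No paired analysis was possible because the groups share fewer than 2 replicate numbers. At 2 to 11 reads per group for Slc40a1 and 7 to 27 for Spic, limma made no call with no filter; what size of difference it could have called there was not measured.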
